A study of Mus musculus with 32 samples.

Results

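The regions described here are 6973 sites of HNF4A occupancy that lay in the first intron of a protein-coding gene, over 1 kb from the start of every protein-coding gene. They made up 15.3% of the 45552 sites obtained by merging the HNF4A peaks of 8 mice wherever peaks shared at least 1 bp. A site was a member when its midpoint fell in intron 1 of the GENCODE M1 transcript with most exons, on chromosomes 1 to 19 or X of the mm9 build, and no measured level entered that choice. Of the remaining sites, 7074 lay within 1 kb of a gene start, 12122 in later introns, 19154 elsewhere on these chromosomes and 229 on other sequence. HNF4A chromatin immunoprecipitation sequencing (ChIP-seq, antibody Abcam ab41898) was carried out on intestinal epithelial cells (IECs) of the jejunum, which were scraped from villi of male C57BL/6J mice aged 10 to 12 weeks. Libraries, 1 per mouse, came from germ-free mice that had received a high-fat meal (GF+HFM, n = 4), and from conventionalized mice, which were born germ-free and carried a conventional microbiota for 14 days before the same meal (CV+HFM, n = 4). The meal was an egg yolk emulsion given by gavage, and IECs were collected 2 hours later in both groups, so no library without the meal was compared here. The cells were a bulk preparation, which the paper describes as mostly epithelial, with part of the crypts and some mesenchymal cells of the villi. In such a preparation, fewer HNF4A-bound cells of a type and less HNF4A binding per cell cannot be told apart.

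HNF4A is a nuclear receptor that binds DNA as a homodimer and sustains the expression of enterocyte genes for absorption, lipid handling and the brush border. It recognizes direct repeats of nuclear receptor half-sites with a 1-base spacer, and it prefers a variant that contains CAAAGTCCA. First introns lie next to the promoter and are a common location of enhancers, which act on transcription from a distance.

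Reference sequence (mm9, plus strand) from 8 of these sites shows what such regions look like. Each stretch is 200 bases about the middle of the interval that the peaks of every calling library shared, lies wholly in the first intron and meets no annotated exon. That interval can be off the midpoint of the merged site, and the stretches of Picalm, Acsl5, Slc9a3, Slc26a6 and Thrb do not include it. Capitals mark CAAAGNNCA or its reverse complement, a looser form of the HNF4 element. Widest here means the highest mean rank of width within libraries, not the most bases. The Reep6 site was among the 8 widest on average across the libraries and held no match in chr10:79794947-79795146. The Picalm site (chr7:97280415-97280614) was the widest called in all 8 libraries with the full element CAAAGTCCA in its stretch. The Ppp3r1 site (chr11:17070238-17070437) was the widest in GF+HFM among sites that each germ-free and no conventionalized mouse had. The stretches of Acsl5 (chr19:55332470-55332669), Slc9a3 (chr13:74276719-74276918), Slc26a6 (chr9:108757790-108757989), Thrb (chr14:18617087-18617286) and Hopx (chr5:77536365-77536564) are shown because these host genes serve fat absorption, ion transport, nuclear receptor signalling and the crypt, and because each held a match.
Reep6: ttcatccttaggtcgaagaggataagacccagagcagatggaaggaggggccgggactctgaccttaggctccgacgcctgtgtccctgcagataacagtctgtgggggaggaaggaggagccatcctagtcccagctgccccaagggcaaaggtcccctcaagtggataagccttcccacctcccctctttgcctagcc
Picalm: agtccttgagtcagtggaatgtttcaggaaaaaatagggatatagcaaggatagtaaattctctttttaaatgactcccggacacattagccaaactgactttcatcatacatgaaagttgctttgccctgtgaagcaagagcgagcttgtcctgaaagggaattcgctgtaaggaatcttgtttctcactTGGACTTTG
Ppp3r1: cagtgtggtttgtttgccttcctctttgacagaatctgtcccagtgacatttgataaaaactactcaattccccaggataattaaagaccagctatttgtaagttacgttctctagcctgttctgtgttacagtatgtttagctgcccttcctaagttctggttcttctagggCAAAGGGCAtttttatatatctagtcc
Acsl5: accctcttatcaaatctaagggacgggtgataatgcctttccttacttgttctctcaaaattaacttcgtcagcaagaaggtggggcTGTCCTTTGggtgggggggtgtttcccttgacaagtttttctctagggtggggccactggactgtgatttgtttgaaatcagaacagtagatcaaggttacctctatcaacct
Slc9a3: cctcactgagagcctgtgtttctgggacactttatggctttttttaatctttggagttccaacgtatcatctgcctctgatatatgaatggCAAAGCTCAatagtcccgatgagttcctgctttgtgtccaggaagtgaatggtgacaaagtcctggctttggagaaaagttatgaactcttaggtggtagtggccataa
Slc26a6: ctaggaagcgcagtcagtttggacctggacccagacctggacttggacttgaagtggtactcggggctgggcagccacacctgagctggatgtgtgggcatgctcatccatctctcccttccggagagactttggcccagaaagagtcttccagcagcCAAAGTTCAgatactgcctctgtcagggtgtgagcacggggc
Thrb: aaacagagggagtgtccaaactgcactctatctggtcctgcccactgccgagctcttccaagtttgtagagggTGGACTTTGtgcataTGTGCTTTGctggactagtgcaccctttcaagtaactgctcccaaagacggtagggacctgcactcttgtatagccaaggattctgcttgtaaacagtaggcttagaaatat
Hopx: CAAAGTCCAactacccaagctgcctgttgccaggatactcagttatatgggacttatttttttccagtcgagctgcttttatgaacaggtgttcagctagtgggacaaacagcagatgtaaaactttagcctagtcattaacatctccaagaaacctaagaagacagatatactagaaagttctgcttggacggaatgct
The Thrb stretch held 2 matches 15 bases apart, 1 of them the full element, and the Hopx stretch opened with the full element. Of 38 sites chosen by the naming rules with such a stretch, 13 held CAAAGNNCA and 3 held CAAAGTCCA.

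How often were first-intron sites occupied in each condition? Fewer of them were called in every conventionalized mouse than in any germ-free mouse. The GF+HFM libraries called 5306, 4475, 5089 and 5296 of the 6973 sites (5041.5 ± 391, SD, n = 4). The CV+HFM libraries called 4216, 1311, 3057 and 615 (2299.75 ± 1639, SD, n = 4). The groups did not overlap, and the spread in CV+HFM was the wider one, with the libraries of CV+HFM 2 and 4 far below the others. The difference of -2741.75 sites had p = 0.0286 by an exact permutation test over 70 relabellings (two-sided), which is the smallest p that 4 against 4 libraries allow, and 0.171 after Benjamini-Hochberg adjustment over the 6 library comparisons made here. Sites elsewhere were called less often too, and first-intron sites took between 15.2 and 15.7% of all sites called in each germ-free mouse and between 15.0 and 15.5% in each conventionalized mouse (difference -0.25 percentage points, exact permutation p = 0.171, adjusted p = 0.514). With a site counted for a library only when its peaks covered at least 50% of it, that difference was -1.97 points (exact permutation p = 0.0286). The peak names carry animal identifiers with or without a letter A, whose meaning is not given in the sources used here. With the letter, 2 GF+HFM libraries averaged 4890.5 and 3 CV+HFM libraries 2861.33 first-intron sites, and without it 2 GF+HFM libraries averaged 5192.5 and the single CV+HFM library had 615.

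**Figure D1:**
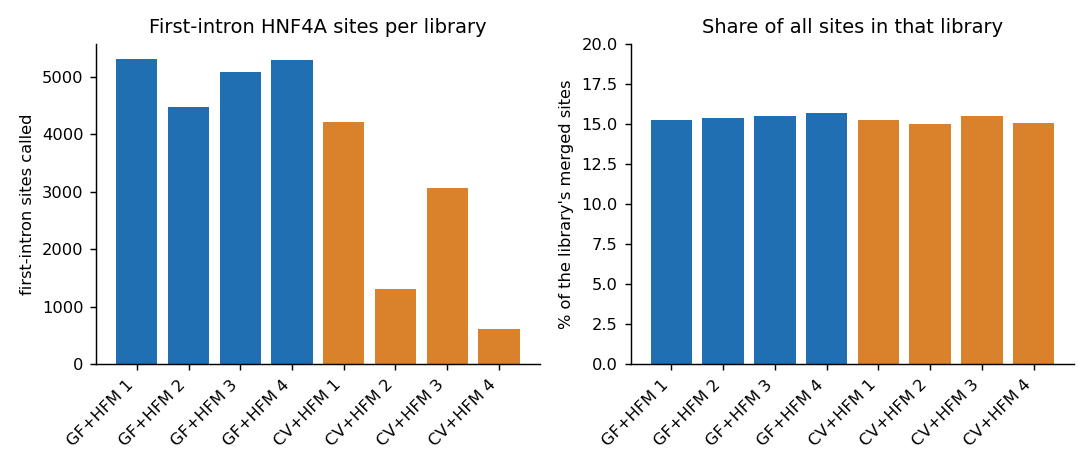
First-intron HNF4A sites called in each library (left, number of sites) and as a percentage of all merged sites called in that library (right). Blue bars are the 4 GF+HFM and orange bars the 4 CV+HFM libraries. Counts run from 4475 to 5306 in GF+HFM and from 615 to 4216 in CV+HFM, whereas the share stays between 15.0 and 15.7%.

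Sites called in conventionalized mice were nearly all a subset of those called in germ-free mice. At least 2 GF+HFM libraries called 5291 first-intron sites and at least 2 CV+HFM libraries called 2882, of which 2877 were in both sets. This intersection was 99.8% of the CV+HFM set and 54.4% of the GF+HFM set. Over all merged sites the corresponding values were 99.5% and 53.6%. A total of 2529 first-intron sites were called in GF+HFM only (36.3%, against 35.6% of all merged sites), and 142 were called in CV+HFM only (2.04%, against 2.67% of all merged sites). Each of the 142 was in 1 library, and 18 of all merged sites were in more CV+HFM libraries than that without a GF+HFM call. The 522 sites that every CV+HFM library called were also called in every GF+HFM library, which is 7.49% of the members beside 7.56% of all merged sites. In all, 1513 members (21.7%, against 21.6% of all merged sites) were called in 1 library of the 8, and these include the 142 above and 1371 of the sites called in GF+HFM only.

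The sharpest contrast between the conditions, a call in each germ-free and in no conventionalized mouse, was met by 210 first-intron sites, or 3.01%. This is near the background of 2.79% over all merged sites. The opposite pattern, 4 CV+HFM and no GF+HFM library, was met by 0 members and by 0% of all merged sites. Without CV+HFM 1 the first of these counts rose to 758, and without GF+HFM 2 it was 393. The share of all merged sites was not computed for these settings, so the rise is not shown to be particular to first introns. These germ-free-only sites were narrow ones: their mean width percentile in GF+HFM had a median of 27.3 and exceeded 50 in 13 of 210, whereas among sites called in all 8 libraries it had a median of 86.1 and exceeded 50 in 515 of 522. A width percentile is the rank of a peak's width among all peaks of its own library, from 0 for the narrowest to 100 for the widest. It stands in for peak strength, which these lists do not hold. The width and percentile given for a site in a library are those of its widest peak there. A site split into several peaks in a library is therefore given less than its full extent. The lists differ in length, with 31061 to 36846 peaks in GF+HFM and 29345, 9206, 21033 and 4533 in CV+HFM 1 to 4, and a percentile moves with the length of its list. Equal or unequal percentiles therefore do not by themselves show that occupancy was kept or lost. Sites called by fewer libraries give a mean over those libraries alone.

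The 8 of the 210 sites with the highest mean GF+HFM width percentile lay in Ppp3r1, E130114P18Rik, AA986860, Cndp2, Plxnb2, 4933407C03Rik, Eef1a1 and Map2k4. Ppp3r1 encodes the regulatory subunit of calcineurin, and its site (chr11:17069909-17070669, 11023 bp from the gene start) was 402, 389, 540 and 761 bp wide in the 4 GF+HFM libraries. The site of Cndp2, a cytosolic dipeptidase (chr18:84851174-84852448), was 449, 172, 753 and 1251 bp wide. The site of Plxnb2, a semaphorin receptor (chr15:89004158-89004785), was 532, 350, 414 and 513 bp wide. All 3 were called in each germ-free mouse and none in a conventionalized mouse, but their width differed up to several fold among the germ-free mice themselves. The site of Map2k4, a kinase of the JNK pathway (chr11:65578878-65579373), had the most even widths of these, at 390, 397, 364 and 496 bp. The Eef1a1 site lay 8338 bp from the annotated gene start although the intron is 0.95 kb long, because the start used is that of the outermost transcript of the gene.

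In a set defined after the values were seen, 5 first-intron sites (0.0717%) had more CV+HFM than GF+HFM calls with at least 2 CV+HFM calls, against 105 of all merged sites (0.231%). They lay in Rtn4rl1, 9030624G23Rik, Ap1ar, Slc4a4 and Shroom3, each with 1 GF+HFM library and CV+HFM 1 and 3. Slc4a4 encodes a sodium bicarbonate cotransporter, and its site (chr5:89358723-89359039) was 289 bp wide in GF+HFM 1, 243 bp in CV+HFM 1 and 180 bp in CV+HFM 3. Shroom3 encodes an actin-binding protein of apical constriction, and its site (chr5:93174574-93175209) was 358 bp wide in GF+HFM 4, 545 bp in CV+HFM 1 and 169 bp in CV+HFM 3.

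Did the conditions differ in how first-intron sites compared with sites elsewhere? Within each library the percentage of first-intron sites called was set against the percentage of gene-start sites called. First-intron minus gene-start was -6.05, 1.48, 7.88 and 10.8 percentage points in the GF+HFM libraries and 5.46, -1.40, 5.02 and 0.253 points in the CV+HFM libraries. These ranges overlapped, and their means of 3.52 ± 7.46 points for GF+HFM and 2.33 ± 3.43 points for CV+HFM (SD, n = 4 each) differed by less than this spread (exact permutation p = 0.800, adjusted p = 0.943). The direction of this comparison was not stable, since the CV+HFM minus GF+HFM difference was 5.31 points among identifiers with the letter A and -9.07 points among those without. Against later introns, the most alike class, the within-library difference was close to 0 in both groups, at -0.31 ± 0.48 points in GF+HFM and 0.014 ± 0.737 points in CV+HFM (exact permutation p = 0.514, adjusted p = 0.857).

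The width of a site in germ-free mice was accompanied by a steep gradient in how often conventionalized mice called it. Sites called in all 4 GF+HFM libraries, 3615 of them in first introns, were divided into quartiles of mean GF+HFM width percentile over all merged sites. Of the first-intron sites in the narrowest quartile, 73.8, 6.58, 46.5 and 1.36% were called in CV+HFM 1, 2, 3 and 4. In the widest quartile 99.9, 75.1, 98.8 and 44.7% were called. All 4 libraries rose from each quartile to the next, and the order of the libraries was the same in every quartile. Averaged over the libraries, the shares were 32.1, 48.7, 63.7 and 79.6% for first introns and 32.2, 48.9, 63.4 and 79.2% for all merged sites.

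**Figure D2:**
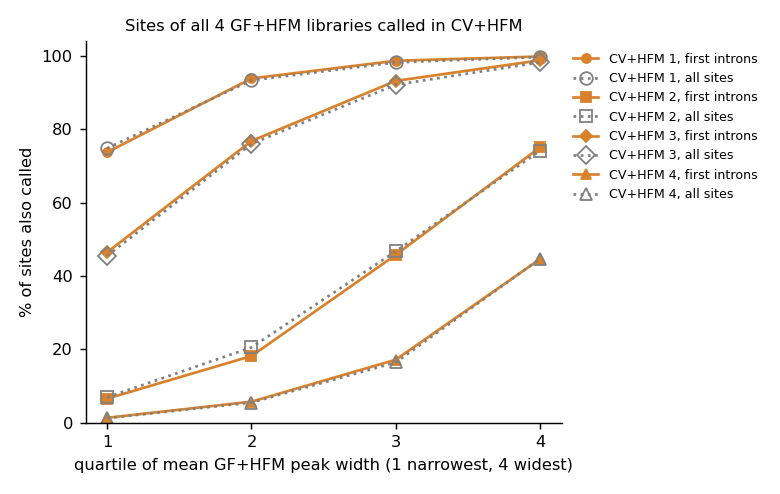
Percentage of sites called in all 4 GF+HFM libraries that each CV+HFM library also called, by quartile of mean GF+HFM peak width percentile (1 narrowest, 4 widest). Orange lines and filled symbols are first-intron sites, grey dotted lines and open symbols all merged sites, and each symbol shape is 1 CV+HFM library. The 2 lines of each library nearly coincide, from 1.36% in the narrowest quartile of CV+HFM 4 to 99.9% in the widest of CV+HFM 1.

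First-intron peaks had typical widths for their libraries. The merged sites had a median width of 438 bp, with quartiles of 292 and 653 bp and a range from 52 to 2873 bp, next to medians of 440 bp for gene-start and 431 bp for later-intron sites. Median widths of first-intron peaks were 309, 298, 406 and 460 bp in GF+HFM and 315, 183, 272 and 108.5 bp in CV+HFM. The absolute widths overlapped between the groups through CV+HFM 1, and CV+HFM 4, the library with fewest calls, had the narrowest peaks. On the percentile scale the GF+HFM medians averaged 49.6 ± 0.537 and the CV+HFM medians 49.9 ± 1.92 (SD, n = 4 each), with an exact permutation p of 0.943 (adjusted p = 0.943). Merged width grows with the number of libraries that contribute to a site, and it had a median of 227 bp for members called in 1 library and 896.5 bp for members called in all 8.

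Of the sites called in all 8 libraries, the 8 with the highest mean width percentile lay in Casz1, Gm2792, Tmem189, Gm20388, Picalm, Nedd4l, Agap1 and Reep6. Casz1 encodes a zinc finger transcription factor. Its site (chr4:148211529-148213202, 33827 bp from the start) lay at the far end of an intron of 33.8 kb, which ended at 148212374. The midpoint, 148212365, was in the intron, but the site ran past that end. The interval that all 8 libraries shared was 148212253 to 148212717. The stretch of sequence about its middle lay past the intron end and overlapped an annotated exon. The site was 1560, 1278, 1579 and 1632 bp wide in GF+HFM and 1296, 526, 783 and 465 bp in CV+HFM. The widest peak in the site had fewer bases in most CV+HFM libraries. Its width percentile nevertheless averaged 99.6 in GF+HFM and 99.3 in CV+HFM, both close to the upper limit of that scale. Picalm encodes a clathrin assembly adaptor, and its site (chr7:97280095-97281371, 2010 bp from the start) was 1016, 1067, 1199 and 1277 bp wide in GF+HFM and 957, 429, 639 and 496 bp in CV+HFM. Reep6 encodes a membrane-shaping protein of the endoplasmic reticulum, and the percentiles of its site (chr10:79794373-79795872) averaged 98.3 and 97.3. Nedd4l encodes a ubiquitin ligase that acts on epithelial sodium channels, and the percentiles of its site (chr18:65116509-65118058) averaged 98.6 and 97.4.

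Relative width was compared between the conditions by limma on normal scores of the width percentile over the 3445 sites that every library called, and p-values were adjusted over all of these by the Benjamini-Hochberg method. Of these, 522 were first-intron sites, and 1 passed an adjusted p of 0.05, beside 4 or 0.116% of all sites tested. At an unadjusted p under 0.05 there were 71 first-intron sites (13.6%) and 398 of all sites (11.6%). The site that passed lies in the first intron of Degs2, which encodes a sphingolipid hydroxylase of the phytoceramide pathway. It is on chromosome 12 from 109931749 to 109933816, 7734 bp from the start of the gene on the minus strand. It was 955, 784, 1281 and 1603 bp wide in the GF+HFM libraries and 394, 119, 275 and 96 bp in the CV+HFM libraries. Its width percentiles were 98, 97.7, 98.6 and 99.1 in GF+HFM and 68, 9.58, 50.2 and 46 in CV+HFM. The groups did not overlap, with CV+HFM 2 the lowest. In this comparison between lists of unequal length, the limma estimate was -2.55 ± 0.400 (SE) on the normal-score scale, with an adjusted p of 0.0218. Without GF+HFM 1, 3 or 4 or CV+HFM 2 or 3 no site passed, in first introns or elsewhere. Without CV+HFM 4 there were 2 first-intron sites beside 5 of all sites. There were 4 beside 14 without GF+HFM 2, and 4 beside 21 without CV+HFM 1.

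Where in the gene did these sites lie? First introns held more sites per length than any later intron. There were 32.6 merged sites per Mb in eligible bases of first introns, 26.0 in second introns, 19.7 in intron 3, 17.4 in intron 4, 16.5 in intron 5 and 14.7 in intron 6 or later. The same ordering of intron 1 above intron 2 above intron 3 held in each of the 8 libraries. The GF+HFM density was 23.6 ± 1.83 sites per Mb in first introns and 10.5 ± 0.770 in intron 6 or later, and the CV+HFM density was 10.8 ± 7.66 and 4.69 ± 3.49 (SD, n = 4 each).

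**Figure D3:**
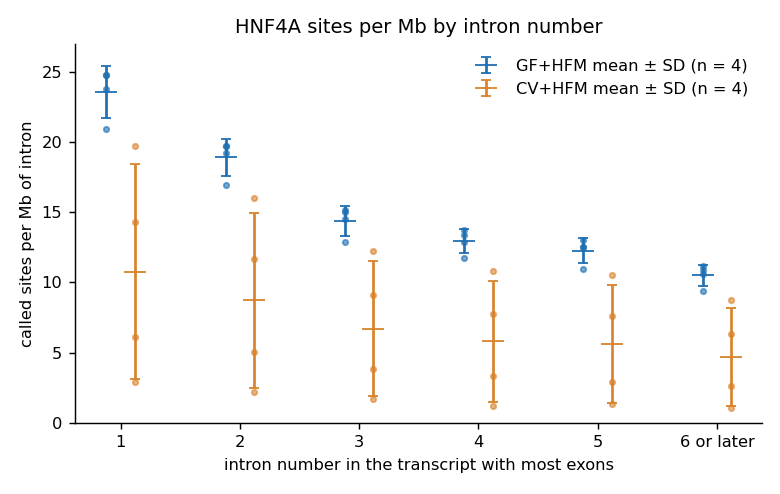
Called HNF4A sites per Mb of intron, by intron number in the transcript with most exons, counting sites and bases over 1 kb from every gene start. Points are libraries, and horizontal marks with bars are the mean ± SD of 4 GF+HFM (blue) and 4 CV+HFM (orange) libraries. Density is highest in intron 1 (23.6 in GF+HFM and 10.8 in CV+HFM) and lowest in intron 6 or later (10.5 and 4.69).

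Since first introns lie nearer the start, they were also set against later introns at equal distance. Midpoints of members lay at a median of 11014 bp from the start of their gene, with quartiles of 4362 and 28737 bp. Density in first introns was highest at 2 to 5 kb from the start, with 55.5 merged sites per Mb, and fell to 11.9 per Mb beyond 100 kb. The 47.5 per Mb at 1 to 2 kb is an undercount. A whole site had to lie over 1 kb from every start, whereas all bases past 1 kb were counted. A lower density at 1 to 2 kb than at 2 to 5 kb is therefore not shown. At 2 to 5 kb the later introns held 33.7 sites per Mb, a ratio of 1.64. In single libraries of GF+HFM this ratio was 1.60 ± 0.0715, and in those of CV+HFM it was 1.51 ± 0.0941 (SD, n = 4 each), and it exceeded 1 in 8 of 8 libraries. It was smallest at 50 to 100 kb, at 1.03 over merged sites and 1.05 to 1.17 in single libraries. In every distance bin 8 of 8 libraries had the higher density in first introns, although the libraries share many of their sites. A base at a given distance lies in the first or in a later intron of its gene, so the classes were not matched by gene. The bin beyond 100 kb, with 453 first-intron sites, includes most of the 4.38 Mb intron of the gene model Gm20388, which held 192 sites. That bin was not recomputed without this model, so its higher density is not shown for first introns in general.

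**Figure D4:**
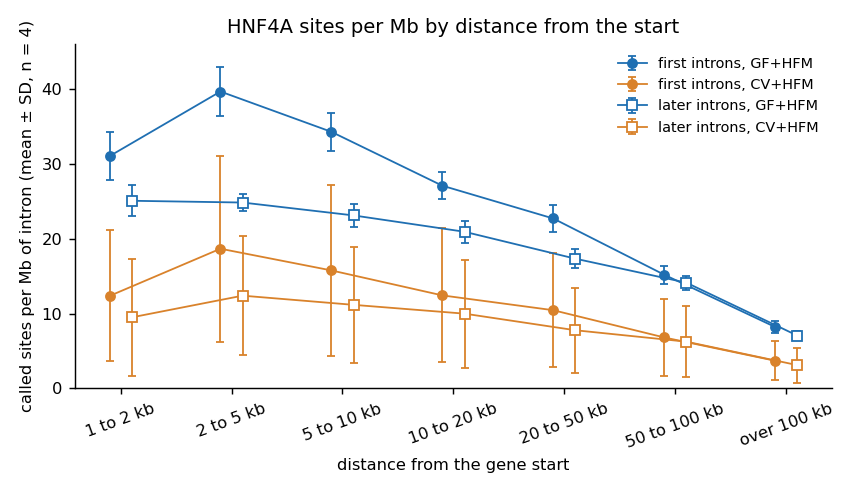
Called HNF4A sites per Mb of first introns (filled circles) and later introns (open squares) by distance from the gene start, as mean ± SD of 4 libraries in GF+HFM (blue) and CV+HFM (orange). First introns peak at 2 to 5 kb, with 39.7 sites per Mb in GF+HFM and 18.7 in CV+HFM, and are closest to the later introns at 50 to 100 kb.

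Median distances from the start differed between the conditions by less than the spread. Called members had median distances of 11451, 11440, 11328 and 11101 bp in GF+HFM and of 11520, 10954, 11581 and 9964 bp in CV+HFM. The ranges overlapped (mean difference -325.25 bp, exact permutation p = 0.571, adjusted p = 0.857). Within the intron, members were spread evenly, with 18.9 to 21.3% of them in each of 5 equal parts of its length. This length includes bases near the start, where the 1 kb rule left sites out. Those were 1388 intron-1 sites up to 500 bp from a start and 639 at over 500 and up to 1000 bp. An even spread of all intron-1 sites is therefore not shown. Members also lay close to other sites, at a median gap of 2052 bp to the nearest merged site next to 3132 bp for other sites, and 69.8% had another within 5 kb. At the edge of the 1 kb rule, 639 intron-1 sites just outside it (over 500 and up to 1000 bp from a start) had calls in 65.4% of GF+HFM and 28.1% of CV+HFM libraries on average, and 423 just inside it (over 1000 and up to 1500 bp) in 68.7 and 30.7%. A start of another transcript lay within 1 kb of 681 members (9.77%).

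Which genes hosted these sites? A total of 3017 genes did, 20.4% of the 14785 protein-coding genes with any base of intron 1 over 1 kb from every start, and 121 members had more than 1 host. Of the hosts, 1576 held 1 site, 329 held at least 5 and 65 at least 10. Hosting rose with length, from 6.94% of genes with up to 5 kb of eligible intron to 50.4% of those with over 50 kb. Hosts with a member called in at least 2 GF+HFM libraries numbered 2518, and those with one called in at least 2 CV+HFM libraries 1673. All merged sites fell as well by the same rule, from 34480 to 18584. A like count of genes for other site classes is not given here. Hosts also had HNF4A at their own start more often than other genes. A site within 1 kb of the start was present in 1603 of 3017 hosts (53.1%) and in 3184 of 11768 genes without a member (27.1%). This difference was seen in each class of intron length, with 60.7 against 29.3% at up to 5 kb and 37.4 against 4.32% at over 50 kb.

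The genes with most sites had long first introns. Ext1, a glycosyltransferase of heparan sulfate synthesis, and St3gal4, a sialyltransferase, each hosted 23. St3gal4 held them in an intron of 61.0 kb, or 37.7 per 100 kb, next to 9.71 per 100 kb in Ext1. The GF+HFM libraries called 23, 22, 22 and 22 of the St3gal4 sites, and the CV+HFM libraries 23, 6, 17 and 2. The Ext1 sites were called 16, 10, 12 and 17 times in GF+HFM and 12, 3, 6 and 1 times in CV+HFM. CV+HFM 1 therefore matched the germ-free libraries at St3gal4, beside the 60.5% of all members that it called. CV+HFM 2 and 4 called few sites of either gene, but they also called few of all members, at 18.8 and 8.82%. Mecom, a zinc finger regulator of stem and progenitor cells, hosted 21 sites. Myo5b, the motor that carries recycling endosomes to the brush border, hosted 20, with 14 common to the 4 GF+HFM libraries (51.8% of all members were) and 0 common to all 8 (7.49% of all members were). Magi1, a scaffold of tight junctions, hosted 20, and Pip5k1b, a phosphoinositide kinase, Trim2, a ubiquitin ligase, and 4933407C03Rik hosted 19 each.

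The gene model with most sites was Gm20388, with 192, but its annotated intron 1 runs over 4.38 Mb of chromosome 8 and spans many other genes, so 4.38 sites per 100 kb fell in it. It was the only host of 131 members. The 3 members farthest from a start and called in all 8 libraries all belonged to it, at 3937118, 3805237 and 3798091 bp. Without the sites hosted by Gm20388 alone, the mean difference in sites called per library was -2698.75 (exact permutation p = 0.0286).

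Host genes were grouped by lists of intestinal functions. The sites named from each list were chosen for high width percentiles in GF+HFM, so lower values of theirs in CV+HFM are given as a description. The enterocyte lists and the stem cell and crypt list had larger shares of hosts than the 20.4% of all genes. The 2 lists of other cell types had smaller ones. Brush border genes led, with 19 of 27 genes that had an eligible intron (70.4%). Nutrient and ion transporters (18 of 28, 64.3%) and intestinal transcription factors and nuclear receptors (24 of 38, 63.2%) followed. Next were xenobiotic metabolism and efflux (19 of 33, 57.6%) and lipid absorption and chylomicrons (15 of 28, 53.6%). Last of these was the joint list of fatty acid oxidation and targets of the nuclear receptor PPARA (14 of 33, 42.4%). The stem cell and crypt list had 10 hosts of 31 (32.3%). Of genes for goblet, Paneth, enteroendocrine and tuft cells 1 of 19 was a host (Pax6), and of non-epithelial genes 2 of 27 were (Pecam1 and Lyve1). Eligible introns of the enterocyte lists were of middling length, with medians from 4.99 to 10.2 kb, and genes of all kinds with 5 to 10 kb were hosts in 24.2% of cases. The stem cell and crypt list and the 2 lists of other cell types had shorter introns, with medians of 2.18, 2.08 and 2.43 kb. Of all genes with up to 5 kb 6.94% were hosts. The shares of the 2 lists of other cell types, 5.26 and 7.41%, were near this value. Numbers of called sites in a list are read beside those of all members, which did not overlap between the conditions, and of which 41.3% were called in at least 2 CV+HFM libraries.

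Lipid absorption genes held 46 first-intron sites, of which 32, 26, 31 and 37 were called in GF+HFM and 28, 12, 22 and 5 in CV+HFM. CV+HFM 1 lay within the GF+HFM range, and the other libraries lay below it. In at least 2 CV+HFM libraries 20 of the 46 (43.5%) were called, near the 41.3% of all members. Lpcat3 encodes the acyltransferase that loads membrane phospholipids with polyunsaturated fatty acids. Its site (chr6:124643459-124645181, 31275 bp from the start) was 1501, 1046, 1722 and 1667 bp wide in GF+HFM, 488, 160 and 300 bp in CV+HFM 1 to 3 and not called in CV+HFM 4. The width percentile averaged 99.6 ± 0.256 in GF+HFM and 58.4 ± 23.6 over the 3 CV+HFM libraries that called it. Because CV+HFM 4 lacked a call, this site did not enter the limma comparison.

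Acsl5 encodes a long-chain acyl-CoA synthetase, and its site (chr19:55331988-55334026, 5148 bp from the start) was 886, 634, 1956 and 2024 bp wide in GF+HFM and 736 and 306 bp in CV+HFM 1 and 3, with no call in the other two. Lpin3, a phosphatidate phosphatase of triglyceride synthesis, held a site (chr2:160716026-160717839) with mean percentiles of 95.9 in GF+HFM and 95.5 in CV+HFM 1 and 3. Sar1b, the GTPase required for chylomicron export, held one called in all 8 libraries (chr11:51581206-51582372), at 1011, 474, 1144 and 1141 bp in GF+HFM and 942, 333, 431 and 203 bp in CV+HFM (limma adjusted p = 0.976).

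The joint list of fatty acid oxidation genes and PPARA targets held 32 sites. Of these, 26, 23, 25 and 28 were called in GF+HFM and 18, 6, 14 and 4 in CV+HFM. The 13 called in at least 2 CV+HFM libraries (40.6%) were near the share of all members. Hadh, a mitochondrial beta-oxidation dehydrogenase, held a site (chr3:130957835-130959056) that was 1180, 942, 1162 and 1169 bp wide in GF+HFM and 1071, 313 and 957 bp in CV+HFM 1 to 3. Its mean percentiles were 98.1 and 96.5. Cpt2, the inner-membrane carnitine palmitoyltransferase, held a site (chr4:107593586-107594322) of 567, 348, 631 and 714 bp in GF+HFM and 412, 119 and 352 bp in CV+HFM 1 to 3. Acaa2, the mitochondrial thiolase, held one (chr18:74941078-74941857) of 604, 362, 674 and 588 bp in GF+HFM that CV+HFM 1 alone also called, at 245 bp. Ppargc1a, the coactivator of mitochondrial genes, held one called in all 8 (chr5:51943315-51944172), with mean percentiles of 82.7 and 60.6 and a limma adjusted p of 0.778.

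Brush border genes held 66 sites, of which 50, 42, 50 and 57 were called in GF+HFM and 42, 9, 28 and 5 in CV+HFM. CV+HFM 1 equalled GF+HFM 2, the other 3 lay below every germ-free library, and 42.4% of the sites were called in at least 2 CV+HFM libraries. Pls1, the actin bundler plastin of microvilli, held a site called in all 8 (chr9:95715438-95716726), with mean percentiles of 95.3 and 88.6. Treh, the disaccharidase trehalase, held one (chr9:44483974-44485214) with mean percentiles of 92.4 in GF+HFM and 57.1 in CV+HFM 1 to 3 (77.8, 21.5 and 72.0). Slc9a3r1, a scaffold of the apical membrane, held one (chr11:115025939-115027275) called in CV+HFM 1 and 3 at 1017 and 297 bp. Enpep, the peptidase aminopeptidase A, held a site with mean percentiles of 90.5 and 90.2 (chr3:129027836-129028689, limma adjusted p = 0.494).

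Nutrient and ion transporters held 53 sites, of which 40, 33, 46 and 41 were called in GF+HFM and 38, 14, 25 and 6 in CV+HFM, with CV+HFM 1 inside the GF+HFM range, and 47.2% were called in at least 2 CV+HFM libraries. Slc9a3, the apical sodium-hydrogen exchanger, held a site (chr13:74276196-74277848, 18059 bp from the start) of 1356, 938, 1262 and 1653 bp in GF+HFM and 759 and 987 bp in CV+HFM 1 and 3. Slc26a6, an apical anion exchanger, held one called in all 8 (chr9:108757380-108758669), with mean percentiles of 96.2 ± 0.674 and 95.8 ± 2.35 (limma adjusted p = 0.693). Slc15a1, the peptide transporter (chr14:121896747-121897847), and Slc7a8, an amino acid exchanger (chr14:55395471-55396470), each held a site called in every library but CV+HFM 4. In the CV+HFM libraries that called them, the mean percentiles of these 4 sites were 98.1, 95.8, 94.5 and 90.0.

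Intestinal transcription factors and nuclear receptors held 95 sites, of which 80, 66, 67 and 80 were called in GF+HFM and 56, 15, 41 and 5 in CV+HFM. In at least 2 CV+HFM libraries 37 (38.9%) were called, near the 41.3% of all members. Hosts included Hnf4a itself and its paralog Hnf4g, which are named here after their membership was seen. Vdr, the vitamin D receptor (chr15:97733749-97734648), had mean percentiles of 91.2 in GF+HFM and 58.3 in CV+HFM 1 to 3 (94.5, 25.9 and 54.3). Nr1i2, the xenobiotic receptor PXR (chr16:38282439-38283243), had 87.7 and 91.1 in the same libraries. Thrb, a thyroid hormone receptor (chr14:18616802-18618116, 123985 bp from the start), had 86.2 ± 7.69 in GF+HFM and 62.6 ± 27.1 in CV+HFM (limma adjusted p = 0.738).

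Xenobiotic metabolism genes held 43 sites, of which 33, 28, 32 and 34 were called in GF+HFM and 22, 5, 21 and 2 in CV+HFM, and 44.2% were called in at least 2 CV+HFM libraries, near the share of all members. Abcg2, an efflux transporter (chr6:58590189-58591208), had mean percentiles of 92.9 in GF+HFM and 55.6 in CV+HFM 1 to 3 (91.0, 3.04 and 72.6). Sult2b1, a sterol sulfotransferase (chr7:53012527-53013530), was called in all 8 with 89.8 and 71.6 (limma adjusted p = 0.674). Mgst3, a microsomal glutathione transferase (chr1:169314055-169314764), and Ephx2, the soluble epoxide hydrolase (chr14:66737108-66737732), had 73.3 and 70.9 in GF+HFM and 76.0 and 53.2 in the CV+HFM libraries that called them.

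Stem cell and crypt genes held 28 sites, of which 16, 15, 19 and 20 were called in GF+HFM and 14, 2, 9 and 2 in CV+HFM. In at least 2 CV+HFM libraries 8 (28.6%) were called, beside 41.3% of all members, a difference that was not tested. Hopx, a homeodomain protein of reserve stem cells and of villus cells, held a site called in all 8 (chr5:77536069-77537050, 7627 bp from the start). It was 737, 651, 753 and 982 bp wide in GF+HFM and 699, 527, 655 and 407 bp in CV+HFM, and its percentiles averaged 92.5 ± 2.81 and 97.4 ± 1.84. The rank was higher in all 4 CV+HFM libraries than in the GF+HFM libraries, but this did not pass adjustment (limma adjusted p = 0.332). Lrig1, a restrainer of receptor tyrosine kinases in stem cells (chr6:94626055-94626810), Smoc2, a matricellular crypt protein (chr17:14430531-14431136), and Lgr4, an R-spondin receptor (chr2:109781917-109782336), each held a site that all GF+HFM libraries and CV+HFM 1 and 3 called. On the non-epithelial list, the site of the endothelial adhesion gene Pecam1 (chr11:106581669-106582153) was called with the same pattern, at a mean GF+HFM percentile of 47.9.

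What sequence did the sites share? Letters were counted in 200 bases at the midpoint of every site, on both strands. CAAAGTCCA was found in 334 of 6973 first-intron sites (4.79%, Wilson 95% interval 4.31 to 5.32), in 4.91% of all other sites, in 5.67% of later-intron and in 1.67% of gene-start sites. It was in 0.225% of 1036529 windows of the same length that tile first introns outside the sites. The looser CAAAGNNCA, which includes the former, was found in 22.6% of members, 26.8% of later-intron and 9.74% of gene-start sites and in 4.75% of the windows. The ideal direct repeat AGGTCANAGGTCA was rare, at 0.344% of members and 0.0443% of windows. Members had a mean GC content of 48.1%, next to 59.0% for gene-start sites and 42.8% for the windows.

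Letters recognized by other intestinal factors were counted in the same way. The AP-1 element TGANTCA was in 10.7% of members and 5.98% of windows, the GATA element AGATAAG in 5.95 and 2.83%, the CDX element GCAATAAA in 1.12 and 0.851%, and the ETS element CCGGAAGT in 0.330 and 0.124%. Gene-start sites differed from members in the ETS element, at 3.38%, and in AP-1, at 4.20%. None of these counts shows that a factor was bound.

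The element was more common among sites called in more libraries. CAAAGNNCA was in 19.1% (17.2 to 21.2) of members called in 1 library and in 28.2% (24.5 to 32.2) of those called in all 8, and CAAAGTCCA in 2.84% (2.12 to 3.81) and 8.43% (6.34 to 11.1). For all other sites the looser form went from 18.8 to 28.0%. The 210 germ-free-only sites held CAAAGNNCA in 21.9% (16.8 to 28.0) and CAAAGTCCA in 3.81% (1.94 to 7.34). By library, CAAAGTCCA was in 5.01, 5.54, 5.19 and 5.14% of the first-intron sites called in GF+HFM and in 5.72, 6.56, 5.95 and 8.62% of those called in CV+HFM. The shares were higher in each CV+HFM library, highest in the library with fewest sites, and nearly the same in all other sites of that library (8.93%). Conversely, the 334 members with CAAAGTCCA were called in 72.2, 25.7, 54.5 and 15.9% of cases in CV+HFM 1 to 4, and those lacking it in 59.9, 18.5, 43.3 and 8.47%. Intervals of shares cover the counting of sites only.

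**Figure D5:**
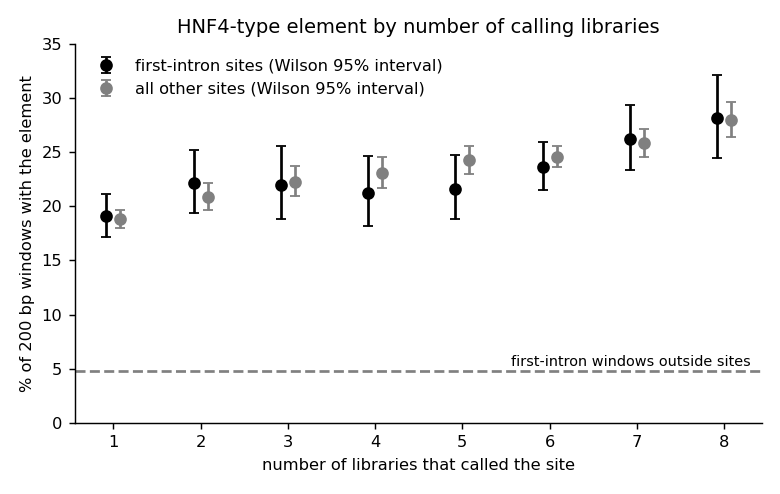
Percentage of sites with CAAAGNNCA or its reverse complement in 200 bases at the midpoint, by the number of libraries that called the site. Black points are first-intron sites and grey points all other sites, with Wilson 95% intervals, and the dashed line is the 4.75% of first-intron windows outside sites. Shares of first-intron sites rise from 19.1% at 1 library to 28.2% at 8.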

How the data were processed

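Analysed were the HNF4A ChIP-seq peaks of 8 mice, 4 GF+HFM and 4 CV+HFM. The RNA-seq, H3K27ac and other libraries were not used here. The authors aligned reads to mm9 with Bowtie2 and, per the labels and methods, called peaks in each mouse with MACS2 2.1.1.20160309 against the input of its condition. The deposited lists hold positions in bp and no count, score or signal, so the depth is unknown, and the number of peaks moves with depth, enrichment and input. Because the planned comparison allowed for peak strength, which the lists lack, width rank took its place. Peaks were merged and classed with pandas 2.3.3 in Python 3.11.15, conditions were compared by exact permutation over libraries, and width ranks with limma 3.58.1 in R 4.3.3, tested on simulated data. Every peak ended within the NCBIM37 chromosome it lay on. Sequence was read with pysam 0.24.0. Distances run from the annotated gene start to the site midpoint.

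The members, gene lists and tests were chosen with earlier results of these data known. Named were the 8 widest sites called in all 8 libraries, the 8 widest in GF+HFM among those that each germ-free and no conventionalized mouse had, every site of at least 2 CV+HFM and no GF+HFM libraries (there were 0), the 8 genes with most sites, up to 4 genes per list by mean GF+HFM width percentile among sites called in 4 GF+HFM libraries, and the 3 farthest sites called in all 8. Widest means the highest mean width percentile. Replicates are separate mice. Alternatives are given at the end. One site chosen by these rules and one motif are not reported here.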

Additional observations from a re-analysis of the deposited data

Results flagged for a closer look

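Among 14 groups of 4 libraries tested for a value far from the other 3, 2 stood out, and chance marks about 1 group in 20. The median width percentile of first-intron peaks was 52.8 in CV+HFM 4, far above the other CV+HFM libraries at 49.1, 48.6 and 49.1. CV+HFM 4 was also the library with fewest sites. The share of a library's first-intron sites that no other library called was 2.82% in CV+HFM 1, far above 0.381, 0.458 and 0.650% in CV+HFM 2, 3 and 4, and below 3.71 to 8.33% in GF+HFM. The part of the number of calls in either value was not tested.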

How the results depend on the processing

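Calls per library had an exact permutation p of 0.0571 with peaks at least 300 bp wide (-2310.5 sites) and without any 1 GF+HFM library. With each library left out in turn the difference ran from -3383.5 to -2180.17 sites, always lower in CV+HFM. Peaks covering at least 50% of a site made the share of called sites in first introns differ by -1.97 points (exact permutation p = 0.0286), turned the contrast with later introns to -0.163 points and raised the germ-free-only sites to 382. That contrast was -0.0197 with peaks at least 300 bp wide, and the difference in median width percentile was -0.160 over 2 kb from starts and -2.14 for sites in at least 2 libraries. It was 17.7 with peaks at least 300 bp wide, whose percentiles were still taken over whole lists (exact permutation p = 0.0857). With each library left out, the contrast with gene starts ran from -2.50 to 0.543, turning without GF+HFM 4 (0.543) and CV+HFM 2 (0.0459). The contrast with later introns then ran from 0.0068 to 0.748, and the median distance from -517 to 21.7 bp (turning without CV+HFM 4). The width percentile ran from -0.616 (without CV+HFM 4) to 0.763 and the germ-free-only sites from 211 to 758. Limma calls ran from 0 to 4 in first introns and from 0 to 21 over all sites tested. For the germ-free-only counts, the share over all merged sites was not computed under any alternative. The causes were not tested. Of all 144 recomputed values, 118 were labelled unchanged. For values with a p-value this meant the same direction and the same side of the threshold. Counts of germ-free-only sites and limma calls have neither, and were labelled unchanged when near the main count, as with 311 against 210 germ-free-only sites.

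The replicate numbers belong to different animals, and deviations of same-numbered libraries correlated at 0.00579, -0.0618, -0.0413 and 0.0831. With the replicate block, the difference in calls per library (-2741.75) had p = 0.125 by exact sign flips, the smallest that 4 pairs allow, and no other call changed. The lists hold no depth, so a site that was not called is not shown to be unbound.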
